A study of Mus musculus with 6 samples.

Results

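The genes described here are Cd4, Cd8a, Cd8b1, Zbtb7b and Patz1, 5 of the 19938 genes that had a probe set of their own on the arrays. They were taken by name, and each was represented by the only probe set linked to it (10547894 for Cd4, 10538993 for Cd8a, 10538979 for Cd8b1, 10499612 for Zbtb7b and 10373728 for Patz1). Gene expression was measured on 6 Affymetrix arrays of mouse cells, 2 for each of 3 populations. All 3 populations descended from bone marrow cells transduced with Nup98-HoxB4, a fusion gene that keeps blood progenitors growing in culture, so no population was free of it. The HSC cells were grown with IL6 and SCF and stood for blood stem cells. The ProT cells were grown with IL7 and DLL4, a ligand that activates the Notch1 receptor, and the DP cells were double positive thymocytes formed after ProT cells had been injected into Rag2-/- mice, hosts that cannot make their own mature T or B cells. Ages, the number of mice, and whether replicates came from separate cultures or animals were not given in the labels, so the spread behind each p-value is that between these samples and could be technical alone.

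CD4 and CD8 are the co-receptors of the T cell receptor. CD4 binds MHC class II and CD8 binds MHC class I on the presenting cell, and both bring the kinase LCK to the receptor. CD8 on thymocytes is mostly a pair of the alpha chain (Cd8a) and the beta chain (Cd8b1). Early thymocytes carry neither co-receptor, double positive thymocytes carry both, and mature T cells keep one. Zbtb7b encodes ThPOK, the BTB zinc finger factor that directs thymocytes to the CD4 lineage and is normally induced after the double positive stage. Patz1 encodes MAZR, a related factor known to bind the Cd8 locus and to repress Zbtb7b in cells of the CD8 lineage.

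RefSeq promoter windows of the mouse build GRCm38.p6 (250 bases before to 50 bases after a transcript start, which is base 251 of the 300) were matched for 3 of the 5 genes, with 5 windows in all. The window of Cd8a is shown because this gene went from a dim to a very bright signal, and both windows of Zbtb7b because its single probe set does not tell its 2 start sites apart. Capitals mark matches, on either strand, to short motifs: for RUNX factors TGTGGT, or with a C in its middle TGCGGT; for the E-box CAGCTG, or with another centre CACCTG; for GATA factors AGATAA, or with another first base TGATAA; for TCF and LEF factors CTTTGA; for ETS factors AGGAAG; for MYB factors CAACTG; for MAZ-like factors the G-rich word GGGAGGG; and for the TATA box TATAAA.
Cd8a, chr6:71373177-71373476, plus strand: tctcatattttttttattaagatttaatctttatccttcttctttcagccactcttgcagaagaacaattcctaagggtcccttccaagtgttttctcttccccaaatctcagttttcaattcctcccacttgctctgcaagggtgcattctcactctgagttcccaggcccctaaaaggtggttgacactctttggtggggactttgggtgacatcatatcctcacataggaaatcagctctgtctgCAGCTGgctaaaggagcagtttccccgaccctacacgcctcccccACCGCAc
Zbtb7b upstream start, chr3:89393329-89393628, minus strand: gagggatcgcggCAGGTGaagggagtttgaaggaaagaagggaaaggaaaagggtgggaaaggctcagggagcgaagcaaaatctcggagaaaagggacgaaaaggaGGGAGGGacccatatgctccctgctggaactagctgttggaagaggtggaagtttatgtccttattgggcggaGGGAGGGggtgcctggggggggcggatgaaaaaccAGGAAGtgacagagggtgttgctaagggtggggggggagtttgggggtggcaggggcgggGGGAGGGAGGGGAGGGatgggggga
Zbtb7b downstream start, chr3:89387622-89387921, minus strand: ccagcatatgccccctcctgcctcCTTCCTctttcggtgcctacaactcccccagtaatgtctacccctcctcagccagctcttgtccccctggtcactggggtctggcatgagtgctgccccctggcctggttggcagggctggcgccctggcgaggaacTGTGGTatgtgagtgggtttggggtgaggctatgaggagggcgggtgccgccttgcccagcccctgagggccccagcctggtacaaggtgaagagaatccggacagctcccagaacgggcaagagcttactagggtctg

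The Cd8a window held an E-box match that begins at base 249, 2 bases before the transcript start and running over it, and a RUNX match on the other strand at base 294. An E-box match was present in 32.9% of all 32851 windows of this length and a RUNX match in 22.4%. The upstream window of Zbtb7b held 5 matches to the G-rich motif, of which the last 3 overlap in turn, with 1 ETS and 1 E-box match. The G-rich motif was found in 22.0% of all windows and the ETS motif in 35.4%. The downstream window of Zbtb7b held 1 RUNX and 1 ETS match. The 2 windows of Patz1 held 1 TCF and LEF match between them, in the upstream one, and 2 E-box matches and 1 G-rich match in the downstream one. The TCF and LEF motif was found in 16.0% of all windows. No window of the 3 genes held a GATA, MYB or TATA match, motifs found in 18.6%, 13.7% and 13.6% of all windows, which says only that those letters are not in these windows. GC content was 46.7% in the Cd8a window, 59.7% and 63.3% in those of Zbtb7b, and 55.7% and 71.3% in those of Patz1, beside a median of 52.7% over all windows.

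Values are log2 signals. The median of all gene values was 7.17, and a signal below it was not shown to lie above background, so folds against such a mean are stated as lower bounds, and log2 differences against one are differences of measured signal whose size is limited in the same way. Differences are log2 differences of group means with the standard error (SE) from limma, and the threshold for a call was 0.05 for the p adjusted by Benjamini and Hochberg's method over all genes tested. In bulk RNA, a lower share of cells that express a gene and less of its RNA per cell cannot be told apart. Replicate arrays correlated at 0.991 to 0.997 over all probe sets.

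The labels of the populations were set against marker genes. Of the double positive thymocyte markers, 9 of 9 measured were higher in DP than in ProT, beside 14.5% of all genes higher and 18.1% lower. Rag1, an enzyme of receptor gene recombination, averaged 5.89 for HSC, 6.98 for ProT and 13.41 for DP. Of the early T progenitor markers, 7 of 10 were higher in ProT than in HSC and 2 lower, while 1 did not pass. In DP, 8 of these 10 still reached the median of all genes. Against ProT 1 was higher in DP and 7 lower, and against HSC 6 were higher and 4 lower. Il2ra, a chain of the IL2 receptor, averaged 6.35 for HSC, 13.07 for ProT and 10.99 for DP. Of 7 stem and progenitor markers, 2 were lower and 1 higher in ProT than in HSC and 4 did not pass. All 7 were lower in DP than in HSC. As a yardstick for both progenitor lists, limma called 7.85% of the 19938 genes up and 6.90% down from HSC to ProT. From HSC to DP it called 16.0% up and 18.8% down. Cd34, a progenitor surface protein, averaged 12.75 for HSC and 12.69 for ProT.

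The co-receptor genes Cd4, Cd8a and Cd8b1 were dim in HSC and in ProT and among the brightest signals of the arrays in DP. The signal of Cd4 was 5.88 and 5.80 on the HSC arrays, 6.06 and 5.94 on the ProT arrays, and 12.87 and 12.84 on the DP arrays. Cd8a stood at 6.34 and 6.31 in HSC, 6.42 and 6.42 in ProT, and 13.00 and 12.96 in DP. Cd8b1 stood at 5.78 and 5.79 in HSC, 5.76 and 5.68 in ProT, and 12.25 and 12.31 in DP. For each gene the DP arrays lay far above the other 4, with no overlap, and the replicates lay close together. In rank among all genes of an array, the dim signals lay at percentiles 27.0 to 40.2, and those in DP at 98.5 to 99.6.

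**Figure D1:**
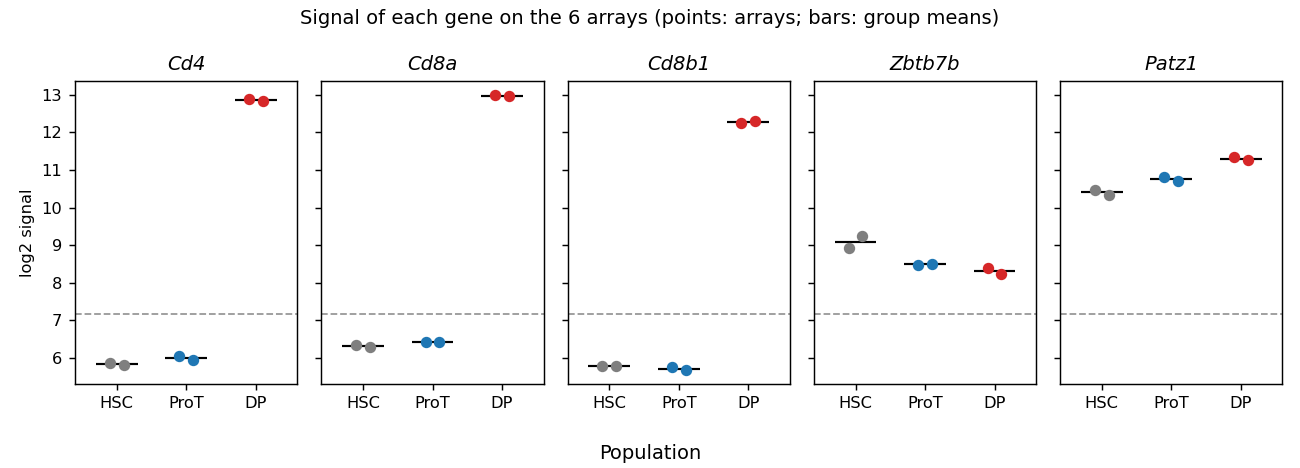
Log2 signal (vertical axis) of the 5 genes, 1 panel each, on the 2 arrays of HSC, ProT and DP (points), with group means (bars) and the median of all gene values, 7.17 (dashed line). The co-receptor genes lie below the dashed line in HSC and ProT and above 12.2 in DP, while Zbtb7b and Patz1 lie above it in all 3 populations.

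At the culture step none of the 3 co-receptor genes passed the test. Between ProT and HSC the difference was 0.16 ± 0.08 (SE) for Cd4, with a 95% interval of -0.03 to 0.36 and an adjusted p = 0.28 from limma. It was 0.10 ± 0.07 for Cd8a (interval -0.07 to 0.27, adjusted p = 0.48) and -0.07 ± 0.07 for Cd8b1 (interval -0.25 to 0.12, adjusted p = 0.693). These intervals leave room for small shifts of the measured signal only. The signals were not shown to exceed background, so the intervals do not bound a change in RNA. In this comparison 2 of the 5 genes were called, Zbtb7b and Patz1, 1 lower and 1 higher, beside 14.7% of all genes called (7.85% higher and 6.90% lower).

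At the step in the mouse all 3 co-receptor genes rose. Double positive thymocytes are named for carrying both co-receptors, so higher signals of these genes in DP were given by the choice of cells. The tests of these 3 genes against DP, here and over the whole path, are thus not independent findings. Since the ProT means of these genes lay below 7.17, the measured differences were lower bounds on the rise and did not order the 3 genes. The measured DP to ProT difference was 6.86 ± 0.08 for Cd4, 6.56 ± 0.07 for Cd8a and 6.56 ± 0.07 for Cd8b1, each with an adjusted p of 1.08e-06 from limma. The 95% intervals of these measured differences ran from 6.66 to 7.05 for Cd4, 6.39 to 6.73 for Cd8a and 6.38 to 6.74 for Cd8b1. With Patz1, 4 of the 5 genes were called higher in DP than in ProT and 0 lower, beside 32.6% of all genes called in either direction, 14.5% higher and 18.1% lower. The split of all calls depends on the scaling of the arrays: 2899 genes were higher and 3607 lower as deposited, 3629 and 3044 after quantile normalization, and 4522 and 2987 after centring each array on its median.

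Over the whole path the co-receptor signals in DP exceeded those in HSC at least 129.5-fold for Cd4, at least 100.7-fold for Cd8a and at least 90.2-fold for Cd8b1 (adjusted p = 8.23e-07 for each, limma). All 5 genes were called between DP and HSC, 4 higher and 1 lower, beside 34.9% of all genes (16.0% higher and 18.8% lower). The sizes of the 2 steps were compared by setting the ProT mean against the middle between the HSC and DP means. ProT lay below that midpoint by 3.35 for Cd4, 3.23 for Cd8a and 3.31 for Cd8b1 (differences of -3.35 ± 0.07, -3.23 ± 0.06 and -3.31 ± 0.06, adjusted p of at most 7.58e-06, limma). Both HSC and ProT means of these genes lay below 7.17, so the size of their first step was not measurable and this contrast does not show which of their steps was larger. This contrast called 3 of the 5 genes, all lower, beside 21.0% of all genes (9.17% lower).

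**Figure D2:**
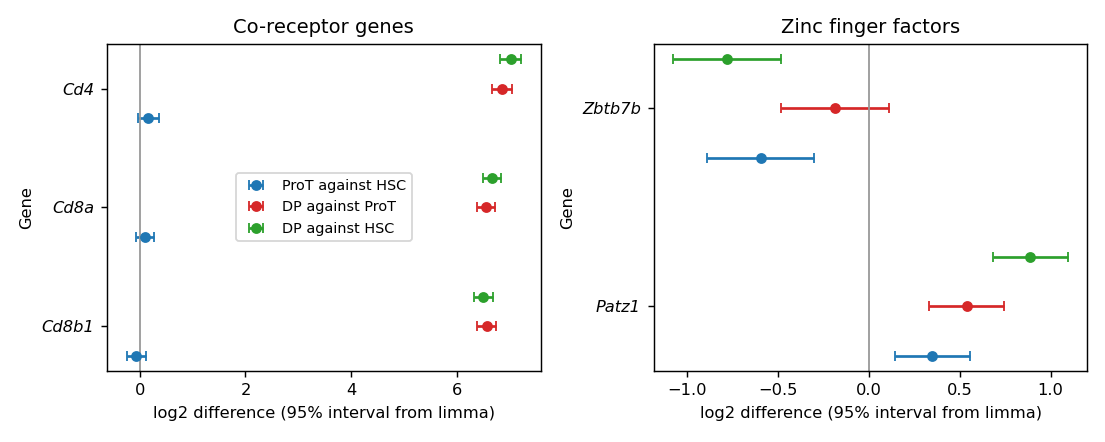
Log2 differences (horizontal axis) of the co-receptor genes (left) and of Zbtb7b and Patz1 (right) in the 3 comparisons, with 95% intervals from limma as bars. The axes of the panels differ: the co-receptor differences against DP lie between 6.50 and 7.02, those of Zbtb7b and Patz1 between -0.78 and 0.89.

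The lineage factor Zbtb7b did not follow the co-receptors and was brightest in HSC. Its signal was 8.94 and 9.23 in HSC, 8.48 and 8.51 in ProT, and 8.39 and 8.23 in DP. The 2 HSC arrays lay above all others and differed from each other by more than the arrays of either other population. From HSC to ProT it fell by 0.59 on the log2 scale (-0.59 ± 0.12, adjusted p = 0.0251, limma), and from HSC to DP by 0.78 (-0.78 ± 0.12, adjusted p = 0.00391, 1.71-fold). Between DP and ProT the difference of -0.18 ± 0.12 did not pass (interval -0.48 to 0.11, adjusted p = 0.321, limma), although the ranges of the arrays did not overlap, and its sign turned after quantile normalization (0.046). At the upper end of the interval a rise of Zbtb7b from ProT to DP would be 0.11 on the log2 scale. The call at the culture step was kept without HSC replicate 1 (adjusted p = 0.00796) and lost without any other single array. The adjusted p was 0.055 without HSC replicate 2, 0.109 without ProT replicate 1, 0.0745 without ProT replicate 2, and 0.069 without either DP array.

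Patz1 was bright in all populations and rose in small steps. Its signal was 10.47 and 10.35 in HSC, 10.80 and 10.71 in ProT, and 11.33 and 11.26 in DP, and no 2 populations overlapped. It lay at percentiles 84.6 and 86.6 of all genes on the HSC arrays and at 94.4 and 94.7 on the DP arrays. The difference was 0.35 ± 0.08 between ProT and HSC (adjusted p = 0.0441), 0.54 ± 0.08 between DP and ProT (adjusted p = 0.00477) and 0.89 ± 0.08 between DP and HSC (adjusted p = 0.000549, 1.85-fold; limma). For Patz1 the 2 steps were not shown to differ in size: ProT lay at -0.09 ± 0.07 from the midpoint (adjusted p = 0.459, limma). For Zbtb7b the same contrast gave -0.21 ± 0.10 (adjusted p = 0.245). The call of Patz1 between ProT and HSC was kept without HSC replicate 1 (adjusted p = 0.0367). It was lost without HSC replicate 2 (0.138), ProT replicate 1 (0.191), ProT replicate 2 (0.0802) or either DP array (0.107), and after centring each array on its median (0.0882).

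**Figure D3:**
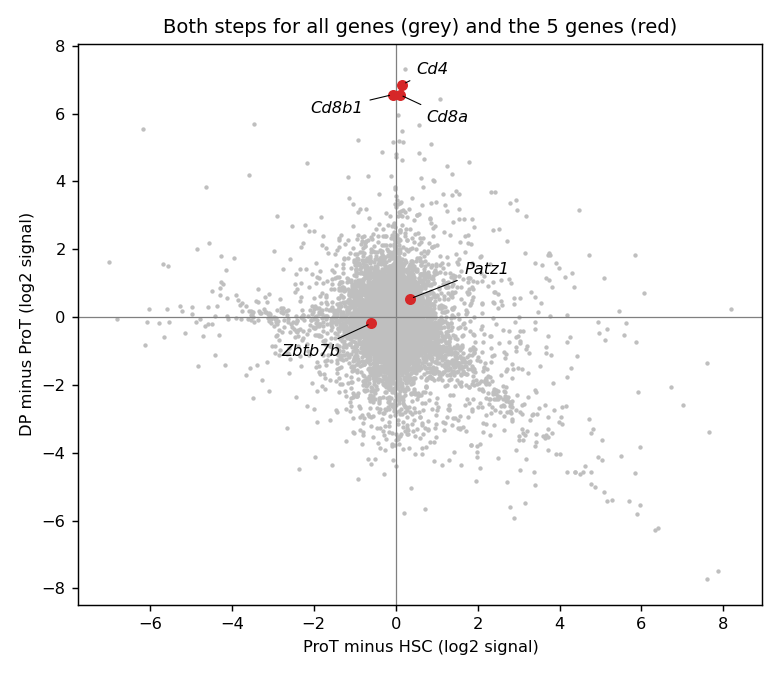
Log2 difference of ProT minus HSC (horizontal axis) against DP minus ProT (vertical axis) for all 19938 genes (grey) and the 5 genes (red). Cd4, Cd8a and Cd8b1 sit near the top edge, at measured differences that are lower bounds, and near 0 on the horizontal axis, and Zbtb7b (-0.59 and -0.18) and Patz1 (0.35 and 0.54) lie within the mass of genes. The axes share the ProT arrays, so the slope of the cloud is not a result.

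Genes with the most similar pattern were found by the root mean square difference between profiles over the 6 arrays, after subtracting each gene's own mean. The co-receptor genes were nearest to one another: Cd8b1 was the nearest of all genes to Cd8a and Cd8a to Cd8b1 (0.08 log2 units), and Cd8a was the nearest to Cd4 (0.16) with Cd8b1 second (0.22). The third nearest to Cd4 was Dntt, the polymerase that adds bases at receptor gene joints (0.24). For Cd8a (0.31) and Cd8b1 (0.28) it was Sh2d1a, the lymphocyte adaptor SAP. All these genes had means below 7.17 in HSC and ProT. Their distances thus rest partly on signals not shown to exceed background, and their order was not established. For the 3 co-receptor genes the shared high signal in DP was also given by the choice of double positive cells. Nearest to Zbtb7b were Zfp202 (0.04), Mst1 (0.04) and Sptlc2 (0.05), and nearest to Patz1 were Cdc42se2 (0.03), Mpp4 (0.03) and Syf2 (0.04). How many other genes with small changes lie that close to each other was not tested, so these last distances are only descriptions over 6 arrays of 3 populations. Zbtb7b and Patz1 lay 0.69 apart. In nearness Patz1 ranked 17524 to Zbtb7b, and Zbtb7b ranked 16672 to Patz1.

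The neighbours of the co-receptor genes on chromosome 6 differed in what they did. Neighbours are the 3 nearest protein-coding genes on each side that had a probe set, in the RefSeq gene order of GRCm38.p6. Beside Cd4, Gpr162, an orphan receptor gene, had signals of 6.46 and 6.02 in HSC, 7.80 and 7.78 in ProT, and 10.72 and 10.65 in DP. It rose at both steps, by 1.55 ± 0.15 (adjusted p = 0.0015) and by 2.89 ± 0.15 (adjusted p = 7.76e-05, limma). On the other side of Cd4, Lag3, a relative of CD4 that also binds MHC class II, stood at 6.65 and 5.81 in HSC, 9.10 and 8.74 in ProT, and 7.76 and 7.89 in DP. Its signal rose by 2.69 ± 0.28 and then fell by 1.09 (-1.09 ± 0.28, adjusted p = 0.0287, limma), so the genes flanking Cd4 went opposite ways at the step at which Cd4 itself rose. Ptms, which encodes parathymosin, rose by 2.45 ± 0.08 from HSC to ProT and did not pass from ProT to DP (-0.21 ± 0.08, adjusted p = 0.104, limma). Of the 6 neighbours of Cd4, 1 was higher and 1 lower in DP than in ProT, near the 32.6% of all genes called there.

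Cd8b1 and Cd8a are next to each other in that order. Of the 5 neighbours of Cd8a other than Cd8b1, 4 were higher in DP than in ProT and 0 lower, with differences of 0.24 to 1.43, and the same counts held for Cd8b1, which shares 4 of these neighbours. Of all genes 14.5% were higher at that step. The largest was that of Rmnd5a, a subunit of a ubiquitin ligase, with signals of 9.40 and 9.35 in HSC, 9.44 and 9.62 in ProT and 10.97 and 10.94 in DP, a rise of 1.43 ± 0.09 (adjusted p = 0.000146, limma). Around Zbtb7b, on chromosome 3, 3 of 6 neighbours were called between DP and ProT, all lower, among them Cks1b, a cofactor of cyclin-dependent kinases, at -1.06 ± 0.08, beside 18.1% of all genes lower. Around Patz1, on chromosome 11, the 6 differences at that step ran from -0.12 to 0.56, and limma called none of them.

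**Figure D4:**
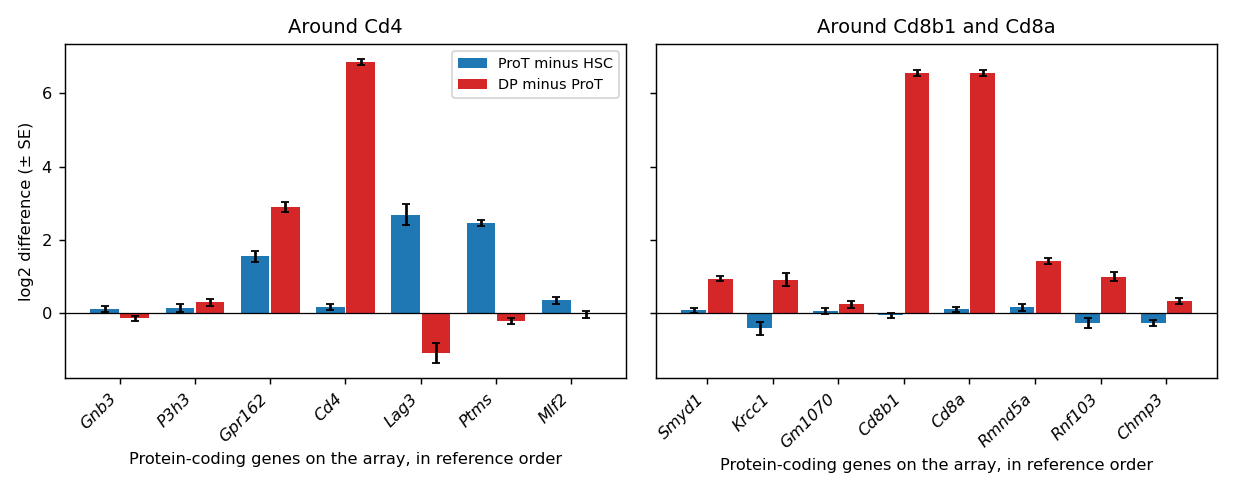
Log2 differences (vertical axis, bars, with SE as error bars) at the step from HSC to ProT (blue) and from ProT to DP (red) for genes around Cd4 (left) and around Cd8b1 and Cd8a (right), in reference order and without distances. Gpr162 rose beside Cd4 at 2.89 while Lag3 fell, and the genes around the Cd8 pair reached at most 1.43.

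Among regulators known to act on the co-receptor genes or on the choice between the CD4 and CD8 lineages, more rose than fell at both steps, and many did not pass. Of the 23 measured, 11 rose, 0 fell and 12 did not pass from HSC to ProT (median 0.28, beside -0.01 over all genes), where 7.85% of all genes were higher and 6.90% lower. From ProT to DP 12 rose, 4 fell and 7 did not pass (median 0.33, beside 0.02), where 14.5% of all genes were higher and 18.1% lower. Those that rose most at the second step were Lef1 (5.11 ± 0.14), Ets1 (3.63 ± 0.10), Bcl11b (3.13 ± 0.08) and Bcl6 (2.92 ± 0.18). Lef1, an HMG box factor of the Wnt pathway, went from means of 6.08 and 6.93 to 12.04, and Ets1, an ETS factor of lymphocytes, from 7.48 and 8.64 to 12.27. Bcl11b, a zinc finger factor of T cell commitment, averaged 7.16, 8.40 and 11.54 in the same order.

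The RUNX factors silence Cd4 in cells without CD4 and activate Cd8 genes, and Runx3 is the member of the CD8 lineage. Runx3 was bright in ProT, at 12.12 and 12.01, above its 11.31 and 11.66 in HSC, and lowest in DP at 9.82 and 9.72. It fell by 2.30 from ProT to DP (-2.30 ± 0.13, adjusted p = 0.000112, limma), the largest fall of the regulators, at the step where Cd4 and the Cd8 genes rose together. Runx1, the relative that serves early thymocytes, did not pass at either step (0.15 and 0.25), nor did Cbfb, the partner of both (-0.11 and 0.33). Gata3, a factor of the CD4 lineage that acts upstream of Zbtb7b, rose by 5.87 from HSC to ProT and fell by 0.73 from ProT to DP. The chromatin factors went different ways at the second step. Smarcb1, a subunit of the BAF remodelling complex, changed by -0.59 ± 0.09 and the DNA methylase Dnmt1 by -0.36 ± 0.07. Smarca4, another BAF subunit, rose by 0.32 ± 0.07 (adjusted p = 0.0173, limma). Smarcc1 (-0.27 ± 0.09), Chd4 (-0.07 ± 0.09) and Hdac1 (0.14 ± 0.08) did not pass.

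**Figure D5:**
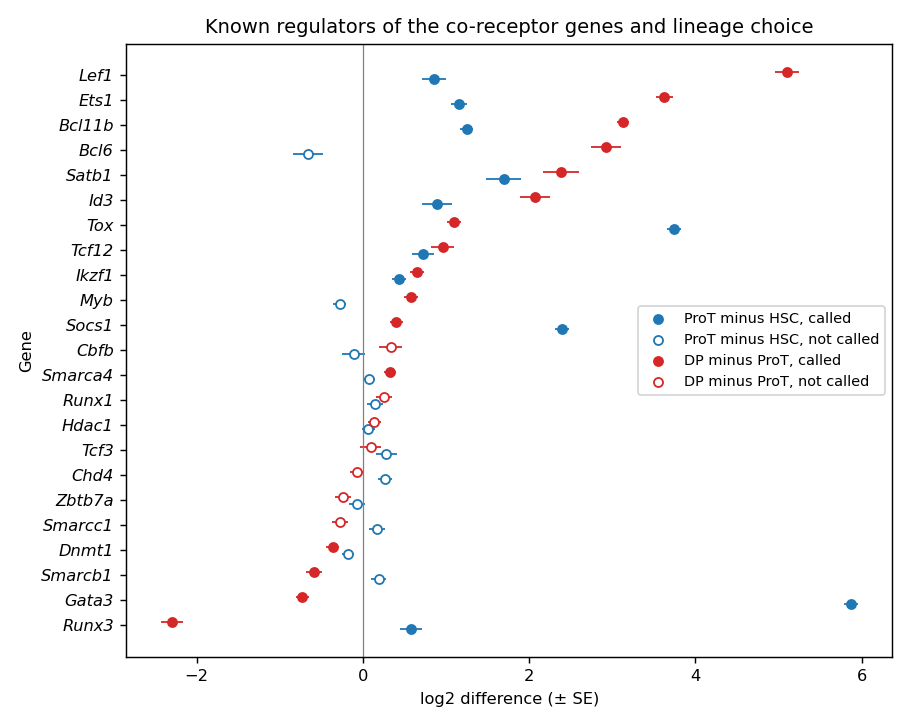
Log2 differences (horizontal axis, points, with SE as bars) of the 23 measured regulators from HSC to ProT (blue) and from ProT to DP (red), ordered by the second step, with filled points for called genes. Lef1 is at the upper end (5.11) and Runx3 at the lower end (-2.30) of the second step.

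Genes of the receptor complex and its signalling, which work with the co-receptors, were mostly called at the culture step already. Of 12 measured partners, 10 rose and 0 fell from HSC to ProT (median 2.22), and 9 rose and 1 fell from ProT to DP (median 0.88). The shares over all genes were 7.85% higher and 6.90% lower at the first step, and 14.5% and 18.1% at the second. Cd3g, a chain of the receptor complex, had a mean of 13.02 in ProT and 13.26 in DP. Themis, a signalling protein of thymocyte selection, rose by 3.17 ± 0.40 at the second step, Zap70, the kinase recruited to the receptor, by 2.64 ± 0.18 and Cd247, the zeta chain, by 2.58 ± 0.10. Unc119, an adaptor that activates LCK, fell by 1.81 (-1.81 ± 0.17), and Csk, the kinase that restrains LCK, did not pass (-0.30 ± 0.13). Of 10 measured genes for the ligands of the co-receptors and their presentation, 5 rose and 0 fell in ProT against HSC, and 3 rose and 1 fell in DP against ProT, where 32.6% of all genes were called. The second count is near that share. All 5 that rose in ProT belong to MHC class II: H2-Aa (5.57 ± 0.17), Cd74 (4.24 ± 0.25), H2-Ab1 (3.72 ± 0.52), H2-Eb1 (2.91 ± 0.18) and the regulator Ciita (0.76 ± 0.16). The HSC means of H2-Aa, Cd74 and Ciita lay below 7.17, and the HSC arrays of H2-Ab1 lay apart (8.45 and 6.72). None of these 5 passed from ProT to DP. Il16, a cytokine that binds CD4, rose by 1.13 ± 0.14 at the second step, Tap2, a peptide transporter subunit, by 0.40 ± 0.08 and B2m, the light chain of MHC class I, by 0.27 ± 0.07. Tapbp, which loads MHC class I, fell by 0.75.

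Zbtb7b and Patz1 belong to the BTB zinc finger family. Of 24 other members, 3 rose and 0 fell from HSC to ProT, beside 14.7% of all genes called, a share near that of the family. From ProT to DP 10 rose and 3 fell (median 0.25), beside 14.5% of all genes higher and 18.1% lower. The largest rise at that step was that of Bcl6, a repressor that drives the follicular helper T cell program, followed by those of Zbtb20 (2.32 ± 0.18), Zbtb1 (1.13 ± 0.21), which lymphoid development needs, and Zbtb44 (0.85 ± 0.10). Hic1 was the opposite, with signals of 7.23 and 6.77 in HSC, 11.06 and 10.94 in ProT and 6.94 and 6.99 in DP, a change of -4.03 ± 0.16 from ProT to DP. Zbtb16, which encodes PLZF of innate-like T cells, changed by -2.44 ± 0.16 and Zbtb10 by -1.23 ± 0.09. Zbtb7a, which encodes the related factor LRF, had means of 9.01, 8.94 and 8.71 in HSC, ProT and DP and did not pass at either step.

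Genes of positive selection and of single positive T cells, which follow the double positive stage, went different ways. Of 15 measured, 9 rose and 0 fell in ProT against HSC, and 5 rose and 1 fell in DP against ProT. Of all genes 14.7% were called at the first step (7.85% higher and 6.90% lower) and 32.6% at the second (14.5% higher and 18.1% lower). At the second step 9 of the 15 did not pass, so the share called in either direction was not far from that of all genes. Cd5, a brake on receptor signals, rose by 4.01 ± 0.11 at the second step, Itm2a by 2.88 ± 0.40, and Ccr7, a homing receptor of mature T cells, by 2.15 ± 0.10. Cd40lg, a helper molecule of the CD4 lineage, rose by 2.76 ± 0.16, to a mean of 7.48 that is close to the median of all genes. Itgae, an integrin chain of the CD8 lineage and of other lymphocytes, fell by 3.62 (-3.62 ± 0.10), and Egr2 (1.07 ± 0.38) and Egr1 (-0.76 ± 0.33), which receptor signals induce, did not pass. No called member of these lists, at the steps from HSC to ProT, ProT to DP or HSC to DP, changed its sign after quantile normalization or median centring.

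Dendritic cells can carry CD4 or CD8 alpha as well. From ProT to DP 14.5% of all genes were higher and 18.1% lower, beside which the counts of this paragraph stand. Of 10 dendritic cell markers, 3 rose and 4 fell at that step. Together they had a log2 of the summed linear signal of 11.76 to 12.14 in HSC, 12.00 to 12.04 in ProT and 10.82 to 10.85 in DP, and in DP 3 of 10 reached the median of all genes, the highest being Irf8 at 9.23. Those that rose were Cd209a (1.06), Siglech (1.04) and Xcr1 (0.44), to means of 6.66, 6.66 and 6.23. Zbtb46 had a mean of 6.52 in DP and Clec9a 5.04, and neither passed. Markers of other cells also changed at the step to DP. For thymic epithelium 7 of 8 rose and 1 fell, with summed signals of 10.81 to 10.88 in ProT and 11.82 to 11.88 in DP, and 4 of 8 reached the median in DP. The highest was Ccl25, a chemokine, at 10.84, while Foxn1, the defining factor, was at 6.37. For macrophages 4 of 9 rose and 2 fell, with summed signals of 11.96 to 11.99 and 11.00 to 11.10 in ProT and DP. C1qb rose to 9.47, while the brightest in ProT fell, Adgre1 from 11.10 to 7.11 and Cd68 from 10.38 to 8.93. For B cells 6 of 6 rose, with summed signals of 10.47 to 10.73 in ProT and 11.17 to 11.20 in DP, but only Cd79b reached the median in DP. For NK cells 1 of 6 rose and 2 fell, and 0 of 6 reached the median in DP. The part of these cells in the differences of the 5 genes was not tested.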

How the data were processed

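Biotin-labelled RNA from 6 samples was hybridized to Affymetrix gene arrays, per the labels' protocols. The authors deposited log2 signals for 35556 probe sets, which RMA and Partek produced, per the submitters' processing notes. RMA corrects background, equalizes the arrays and summarises probes. The sources used here give no versions or settings, and the number of arrays limits the precision. Of the probe sets, 21789 were linked to exactly 1 gene by the platform table, 1621 to several and 12146 to none. The probe set with the highest mean stood for a gene, without a signal filter, giving 19938 genes.

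A mean per population was fitted over all 6 arrays in limma 3.58.1 (R 4.3.3) with eBayes (3 residual and 2.83 prior degrees of freedom), and p-values were adjusted over all genes. Simulated data for DP against ProT held 19938 genes, with 50 changed per size. Log2 changes of 0.5, 1, 2 and 4 were recovered for 32%, 84%, 94% and 100% of genes, with 11 of 166 calls among unchanged genes. Far fewer genes were changed there than the 6506 called in the real comparison, so these rates do not describe its power. The genes, lists and motifs were chosen with earlier results of these data known. From each list, up to 4 called rises, 4 called falls and 2 genes not called were named by size of change from ProT to DP. For each of the 5 genes the 3 nearest in pattern and the flanking genes were considered. Runx1, Smarca4, Chd4, Hdac1, Zbtb7a, H2-Aa, H2-Eb1, Ciita and single marker genes were named after their values were seen. List members without a probe set of their own are not analysed here. Alternatives were a replicate block, 2 other scalings, a filter on dim genes, other probe set choices, a trended robust prior, smaller fits, a stricter threshold and leaving out each array. Python 3.11.15 with pandas 2.3.3 and numpy 2.4.6 prepared the tables.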

Additional observations from a re-analysis of the deposited data

How the results depend on the processing

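Of 315 values of the 5 genes under the alternatives, 295 kept their direction and their side of the threshold, 19 kept only the direction and 1 turned its sign. These counts include settings that could not differ. Each of the 5 genes had 1 probe set, so other probe set choices could not change its differences. Leaving out an array of a population outside a 2-population comparison repeated the fit of only those 2 populations. All calls of Cd4, Cd8a and Cd8b1 against DP held under every alternative run, with differences between DP and ProT of 6.80 to 6.97, 6.54 to 6.67 and 6.52 to 6.68. Between ProT and HSC, Zbtb7b lost its call with all probe sets tested (-0.59, adjusted p = 0.0546, limma), with only the 2 populations fitted (-0.59, 0.069) and at the 0.01 threshold (-0.59). Patz1 lost its call there under median centring (0.27, adjusted p = 0.0882), the filter on dim genes (0.35, 0.0591), all probe sets (0.35, 0.0818), a trended robust prior (0.35, 0.0718), only 2 populations (0.35, 0.107) and the 0.01 threshold (0.35). Leaving out single arrays, where the lone array is taken to vary like the other groups, gave -0.74 to -0.45 for Zbtb7b and 0.29 to 0.41 for Patz1 at that step. For DP against ProT, quantile normalization turned Zbtb7b from -0.18 to 0.046 (adjusted p = 0.818). The cause of these changes was not tested.

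Counts of calls over all genes, or over all probe sets where stated, moved by more than 1.5 times in these cases. ProT against HSC went from 2940 to 1792 with only 2 populations fitted and to 1535 at the 0.01 threshold. DP against ProT went from 6506 to 4041 at that threshold. With all probe sets it went to 10483, and DP against HSC from 6953 to 10633. That run tested 35556 probe sets in place of 19938 genes, so its counts are of probe sets and do not show a gain in calls. The midpoint contrast went from 4187 to 2001 at the 0.01 threshold. Without single arrays the counts were 1792 to 3982 at the culture step, 3531 to 7408 at the step in the mouse, 4301 to 6934 over the whole path and 2059 to 5233 for the midpoint contrast; the lowest counts came without DP replicate 2 (equal without DP replicate 1 at the culture step). Median centring moved the median difference between DP and ProT from 0.02 to 0.13 and raised the higher genes from 44.6% to 60.2% of the calls (54.4% after quantile normalization). For ProT against HSC centring took it from 53.2% to 42.0%.

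Same-numbered replicates did not deviate together (correlations of 0.06, -0.04 and -0.03), so the numbers were not taken as pairs. With the replicate block 2845, 6268 and 6757 genes were called in the 3 comparisons, and no call of the 5 genes changed (adjusted p = 0.0421 for Zbtb7b and 0.0466 for Patz1 between ProT and HSC, limma).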
